A study of Mus musculus with 10 samples.

Results

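The genes examined are 10 genes of the circadian clock, measured by RNA sequencing in CD31+ cells from mouse hearts: Arntl, Clock, Npas2, Per1, Per2, Per3, Cry1, Cry2, Nr1d1 and Dbp. They were chosen by name as the core genes of the clock, found in the count table through their Ensembl identifiers, and make up 10 of its 46983 genes. All 10 were among the 15949 genes with enough reads to be tested. The cells came from male wild-type C57BL/6J mice, which carried no transgene and were 8 weeks old when the diets began. A group of 5 mice received the control diet D12359, with 11.6% of its energy as fat, and a group of 5 received the ketogenic diet D17011501, with 89.5% of its energy as fat, both for 14 days. Each mouse gave 1 library from cells pulled out of the digested heart with antibody against CD31 on magnetic beads. The comparison asks which transcripts of cardiac endothelial cells differ when ketone bodies in the blood are raised by diet.

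The circadian clock is a loop of transcription that runs in nearly every mammalian cell, including the cells that line blood vessels. ARNTL (also called BMAL1) pairs with CLOCK or NPAS2 and switches on genes that carry E-box sequences, among them the Per and Cry genes, whose proteins then shut off that pair. The nuclear receptor encoded by Nr1d1 (REV-ERB alpha) represses Arntl through ROR elements, and Dbp encodes an E-box-driven output factor that binds D-boxes, so transcripts of Arntl and Dbp peak at opposite times of day. Feeding time and glucocorticoids are known to reset clocks outside the brain. The mice were kept in a light and dark rhythm with food freely available. The time of day at which hearts were collected is not given in the sources used here, and each mouse was measured once, so the values are levels at a single moment and not rhythms.

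The reads counted on genes numbered 10885154 in the shallowest library and 12710861 in the deepest. The summed level of 10 endothelial markers was 5119 to 5395 CPM (counts scaled to the library total) on the control diet and 5033 to 5589.9 CPM on the ketogenic diet, and edgeR called none of the 10 between the diets, with 2 at an unadjusted p under 0.05. Cardiomyocyte markers were also present: all 10 were detected, their sum was 426 to 572 CPM on the control diet and 513 to 764 CPM on the ketogenic diet, and of the 9 tested 8 were higher on the ketogenic diet, 6 of them at an unadjusted p under 0.05 and none after adjustment. The sum of 8 macrophage markers ranged from 196 to 716 CPM on the control diet and from 175 to 326 CPM on the ketogenic diet, with 7 of the 8 lower (median log2 fold change -0.49), 4 of them at an unadjusted p under 0.05 and none after adjustment. The two-sided exact permutation test gave these 4 genes p-values from 0.0714 to 0.468. The mean z-score of the 8 markers was 1.75 in control mouse 1. It ran from -0.73 to 0.39 in the other control mice and from -0.58 to 0.67 on the ketogenic diet. The sum of 8 lymphocyte markers ranged from 201 to 293 CPM and from 154 to 199 CPM, with the B cell gene Cd79a called lower (log2 fold change -0.46, edgeR adjusted p = 0.0221). Of the 8, 4 were lower, 3 of them at an unadjusted p under 0.05, and 4 were higher. The higher ones were Cd3e (0.11), Cd3d (0.08), Cd8a (0.96) and Nkg7 (0.08), none of them called. In RNA of bulk cells, fewer cells of a type and less RNA per cell cannot be told apart.

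In the GENCODE M21 annotation of the GRCm38 genome, the activators lie on chromosome 7 (Arntl, 113207465 to 113314126, plus strand), chromosome 5 (Clock, 76209868 to 76304792, minus strand) and chromosome 1 (Npas2, 39193731 to 39363236, plus strand). The repressors lie on chromosome 11 (Per1, 69095217 to 69109960, plus strand), chromosome 1 (Per2, 91415982 to 91459324, minus strand), chromosome 4 (Per3, 151003652 to 151044665, minus strand), chromosome 10 (Cry1, 85131700 to 85185064, minus strand) and chromosome 2 (Cry2, 92403646 to 92434043, minus strand). Nr1d1 lies on chromosome 11 (98767932 to 98775333, minus strand) and Dbp on chromosome 7 (45705088 to 45710203, plus strand). Since the libraries do not record the strand, overlaps with other genes matter for reading these counts. Dbp shares 539 exon bases, 18.0% of its exonic length, with Sphk2 on the other strand. Nr1d1 shares 263 bases (8.55%) with the thyroid hormone receptor gene Thra, and Cry2 shares 295 bases (4.67%) with D930015M05Rik, in both cases on opposite strands. Per1, Per2 and Cry1 overlap no other annotated gene. Sphk2 (log2 fold change -0.11 ± 0.0667 SE, edgeR adjusted p = 0.418) and Thra (0.09 ± 0.0476, adjusted p = 0.378) were not called between the diets.

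RefSeq promoter windows on GRCm38.p6, reaching from 250 bases before to 50 bases after an annotated start, were found for 9 of the 10 genes, 13 windows in all. They were searched on both strands for the E-box (CACGTG), the E'-box (CACGTT or AACGTG), the D-box (TTATGTAA, on the other strand TTACATAA, or the palindrome TTACGTAA), the ROR element (TAGGTCA or TGGGTCA, read on the other strand as TGACCTA or TGACCCA) and the cyclic AMP element CRE (TGACGTCA). No matches overlapped each other. Matches were found in 6 of the 13 windows, each in a different gene. Those 6 windows are printed, with each match in capitals and each sequence written 5′ to 3′ on the strand of its gene. No window of Clock, Npas2 or Dbp held a match. Positions count bases from the start, with negative numbers before it.

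Per3, chr4:151044616-151044915, minus strand, D-boxes at -205 and -158: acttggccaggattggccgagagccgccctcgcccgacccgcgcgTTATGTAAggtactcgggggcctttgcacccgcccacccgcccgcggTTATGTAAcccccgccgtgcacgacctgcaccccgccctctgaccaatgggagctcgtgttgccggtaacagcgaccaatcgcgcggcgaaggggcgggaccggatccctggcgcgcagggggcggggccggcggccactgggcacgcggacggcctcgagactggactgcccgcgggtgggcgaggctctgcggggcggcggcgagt
Cry1, chr10:85185005-85185304, minus strand, E'-box at -79 and E-box at -60: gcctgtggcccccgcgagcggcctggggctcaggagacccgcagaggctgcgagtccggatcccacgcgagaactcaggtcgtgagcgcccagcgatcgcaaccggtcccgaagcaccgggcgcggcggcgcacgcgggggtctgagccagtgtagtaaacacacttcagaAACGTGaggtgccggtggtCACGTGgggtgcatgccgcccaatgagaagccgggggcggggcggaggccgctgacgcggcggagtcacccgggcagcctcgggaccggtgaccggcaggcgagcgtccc
Cry2, chr2:92434020-92434319, minus strand, E'-box at -166: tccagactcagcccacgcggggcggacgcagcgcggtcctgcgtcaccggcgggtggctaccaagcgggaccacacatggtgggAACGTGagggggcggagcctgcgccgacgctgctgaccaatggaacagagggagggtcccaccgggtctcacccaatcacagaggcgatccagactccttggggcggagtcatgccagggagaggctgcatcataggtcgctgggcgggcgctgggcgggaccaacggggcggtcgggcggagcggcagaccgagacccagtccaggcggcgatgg
Per1, chr11:69098699-69098998, plus strand, E-box at -166: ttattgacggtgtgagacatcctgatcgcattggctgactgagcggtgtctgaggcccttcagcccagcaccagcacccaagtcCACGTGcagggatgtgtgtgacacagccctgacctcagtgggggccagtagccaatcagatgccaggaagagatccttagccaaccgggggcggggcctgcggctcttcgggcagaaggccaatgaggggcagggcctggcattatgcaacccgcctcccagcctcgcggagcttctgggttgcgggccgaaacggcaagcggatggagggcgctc
Nr1d1, chr11:98775328-98775627, minus strand, E'-box at -28: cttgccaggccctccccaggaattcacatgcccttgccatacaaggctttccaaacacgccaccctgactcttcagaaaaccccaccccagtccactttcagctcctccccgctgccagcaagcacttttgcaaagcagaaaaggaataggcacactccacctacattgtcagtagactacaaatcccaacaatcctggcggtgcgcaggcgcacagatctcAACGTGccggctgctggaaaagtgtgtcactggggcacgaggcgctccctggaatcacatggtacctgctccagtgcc
Arntl, chr7:113207261-113207560, plus strand, ROR element 31 bases after the start: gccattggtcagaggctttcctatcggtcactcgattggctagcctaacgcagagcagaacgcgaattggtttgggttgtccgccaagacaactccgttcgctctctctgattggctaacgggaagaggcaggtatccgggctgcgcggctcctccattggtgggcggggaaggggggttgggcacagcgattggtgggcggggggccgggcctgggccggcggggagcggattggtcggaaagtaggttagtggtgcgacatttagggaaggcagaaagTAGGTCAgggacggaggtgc

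Over the 32851 RefSeq windows of this length in the mouse, the E-box was found in 7.15%, the E'-box in 4.68%, the D-box in 1.06%, the ROR element in 6.45% and the CRE in 1.79%. Among the 9 genes with a window, 2 held an E-box (Per1 and Cry1), 3 an E'-box (Cry1, Cry2 and Nr1d1), 1 a D-box (Per3), 1 a ROR element (Arntl) and 0 a CRE. Cry1 alone among them held matches to 2 kinds of motif, and Per3 alone held the same motif more than once. The percentages are shares of windows, while these genes, some with more than 1 window, are counted once each. The figures are therefore not directly comparable. Elements outside the windows were not searched.

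Levels per gene length were compared with the deposited RPKM values, the reads per gene scaled to its length and to the reads counted. Nr1d1 stood highest, at a mean of 78.1 RPKM over the 10 mice (30.0 to 99.9), and its lowest mouse lay above the highest mouse of every other gene of the group. Cry2 (mean 11.5 RPKM, 8.66 to 16.7) and Arntl (11.5, 8.84 to 13.7) followed and overlapped each other. Cry1, Per1 and Clock formed a group with means of 5.45, 5.34 and 5.09 RPKM whose ranges overlapped. Below them came Per3 (3.38 RPKM), Per2 (2.20), Dbp (1.55) and Npas2 (1.19), each overlapping its neighbour in the order. Part of this order rests on the gene length used: the length implied by the RPKM values was 2904 bases for Arntl against 7523 exonic bases in GENCODE, and 23643 against 13727 for Clock. Scaled to the GENCODE lengths, Clock (8.76) moved up to rank 3 and Arntl (4.42) down to rank 7, while Nr1d1, Cry2 and Npas2 kept their places.

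None of the 10 clock genes was called between the diets by edgeR's quasi-likelihood test at an adjusted p under 0.05, a threshold that 1.34% of all tested genes passed. At an unadjusted p under 0.05 there were 3 of the 10 (Cry1, Clock and Per1), where 17.8% of all tested genes passed. DESeq2 gave 1 gene after adjustment, Cry1, against 5.30% of the 15207 genes it gave an adjusted p. Before adjustment it gave 3, against 9.75% of 32361 genes, which include those it dropped as low in counts. With 10 genes, these counts are not read as a result about the clock. The normalized counts of the diets did not overlap for 1 of the 10, Cry1, against 4.34% of all tested genes. The fitted level was higher on the ketogenic diet for 7 genes and lower for 3, and the median of the 10 log2 fold changes was 0.15. Over all tested genes 48.6% were higher, and the median was -0.0057. The values by mouse are in the plot of normalized counts, the reads of a gene scaled by the TMM method to the mean library size.

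**Figure D1:**
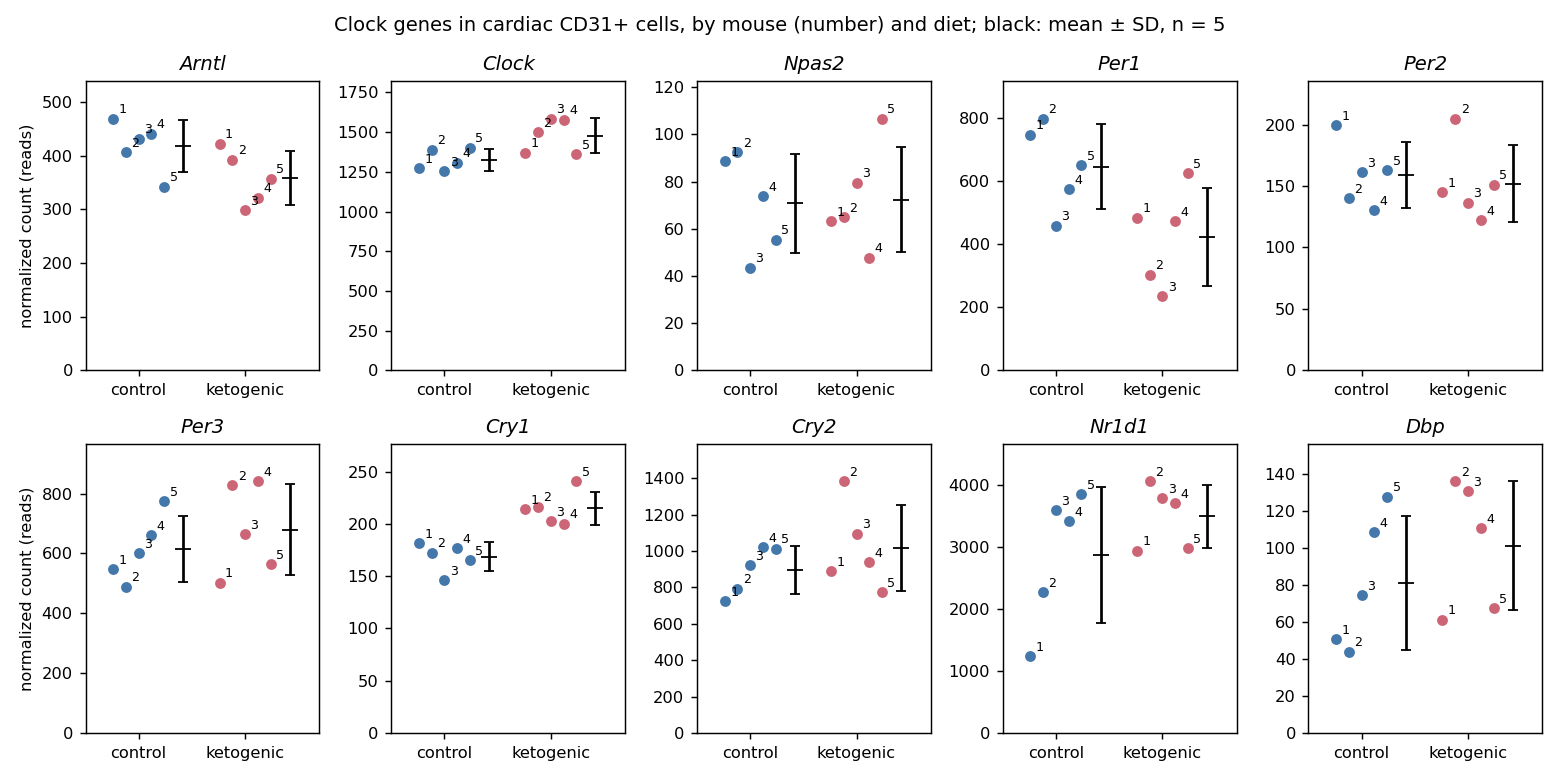
Normalized counts (reads, linear axes from 0) of the 10 clock genes in each of 10 mice, numbered 1 to 5 within a diet, with the mean ± SD of the 5 mice of each diet in black. For Cry1 the mice on the ketogenic diet, from 200.2 to 241, all lie above those on the control diet, from 146 to 181, while the diets overlap for the other 9 genes.

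Among the repressors, Cry1 showed the clearest separation. CRY1 is the strong, late repressor of the ARNTL and CLOCK pair. On the control diet Cry1 had 181, 173, 146, 177 and 165 normalized counts in mice 1 to 5, and on the ketogenic diet 214, 216, 202, 200.2 and 241. All 5 mice on the ketogenic diet lay above the highest control mouse. The mean was 168 ± 13.9 on the control diet and 215 ± 16.1 on the ketogenic diet (SD, n = 5), a ratio of 1.28 with a 95% interval of 1.11 to 1.46. The log2 fold change was 0.35 ± 0.0909 (SE) with an edgeR adjusted p of 0.0781, and the two-sided exact permutation test gave p = 0.00794, the smallest that 5 mice against 5 allow. Cry1 was called by DESeq2 alone (adjusted p = 0.0262), and over the 21 alternatives its adjusted p ranged from 0.0262 to 0.163 with the same sign in all 21. The raw counts behind it were 141 to 264 reads per mouse.

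Its paralog Cry2, which encodes the other cryptochrome, was less even between mice. On the control diet Cry2 had 726, 794, 922, 1021 and 1014 normalized counts in mice 1 to 5, and on the ketogenic diet 889, 1383, 1096, 939.8 and 773. The diets overlapped, and ketogenic mouse 2 was the highest of all 10. The log2 fold change was 0.18 ± 0.147 (SE, edgeR adjusted p = 0.554).

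Of the Period genes, Per1 had the largest difference in size. PER1 takes part in the same repressor complex, and its gene is also switched on quickly by glucocorticoids and by growth signals. Per1 had 746, 797, 459, 574 and 649.7 normalized counts on the control diet and 483, 302, 234, 472 and 624 on the ketogenic diet. Ketogenic mice 2 and 3 lay below every control mouse, whereas mice 1, 4 and 5 lay within the control range. The means were 645 ± 135 and 423 ± 156 (SD, n = 5), a ratio of 0.657 with a 95% interval of 0.46 to 0.938. With a log2 fold change of -0.61 ± 0.236 (SE) the edgeR adjusted p was 0.205, and it lay between 0.136 and 0.815 over the alternatives. With each mouse's cardiomyocyte marker score, the mean z-score of those markers, as a covariate, the log2 fold change of Per1 was -0.15 ± 0.223. The score was higher on the ketogenic diet (mean 0.50 against -0.50).

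Per3, a Period gene with a pair of D-box matches in its window, had 546, 488, 601, 660.1 and 774 normalized counts on the control diet and 502, 828, 664, 841 and 564 on the ketogenic diet. Ketogenic mice 2 and 4 were the highest and mouse 1 was nearly as low as the lowest control mouse. Its log2 fold change was 0.15 ± 0.158 (SE, edgeR adjusted p = 0.665). Per2, the Period gene most needed for rhythm in mice, ranged from 131 to 199.8 normalized counts on the control diet and from 122 to 205 on the ketogenic diet. The fitted difference was -0.06 ± 0.155 on the log2 scale (edgeR adjusted p = 0.863), and its 95% interval of -0.40 to 0.27 leaves room for differences of moderate size in either direction.

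The activators differed little. Clock had 1271, 1389, 1256, 1309 and 1401 normalized counts on the control diet and 1371, 1499, 1585, 1579 and 1361 on the ketogenic diet. Ketogenic mice 2, 3 and 4 lay above all control mice. The ratio of the means was 1.12 (95% interval 1.03 to 1.21), the log2 fold change 0.16 ± 0.0559 (SE) and the edgeR adjusted p 0.172. Arntl went the other way, with 469, 406, 432, 441 and 342 normalized counts on the control diet and 422, 392, 298, 322 and 357 on the ketogenic diet. Ketogenic mice 3 and 4 lay below every control mouse and the rest overlapped (log2 fold change -0.22 ± 0.11 SE, edgeR adjusted p = 0.319). Npas2, the partner that can stand in for CLOCK, was sparse, at 43.5 to 92.5 normalized counts on the control diet and 47.6 to 107 on the ketogenic diet. Its log2 fold change of 0.03 had a 95% interval of -0.51 to 0.58 and changed sign when single mice were left out.

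Nr1d1 and Dbp, which swing widely over the day in many tissues, had the largest within-diet SD of log2 CPM among the 10 genes, 0.51 and 0.59. On the control diet Nr1d1 had 1236, 2278, 3595, 3421 and 3859 normalized counts in mice 1 to 5, and on the ketogenic diet 2941, 4063, 3795, 3708 and 2982. Control mice 1 and 2 were low and the other 8 mice lay within a narrower range. The log2 fold change was 0.28 ± 0.244 (SE, edgeR adjusted p = 0.578). Dbp had 50.8, 43.9, 74.5, 108 and 128 normalized counts on the control diet and 61.2, 136, 131, 111 and 67.4 on the ketogenic diet. The same control mice 1 and 2 were lowest for Dbp, followed by ketogenic mice 1 and 5, and both diets held mice above 100 and below 70 normalized counts. The log2 fold change of Dbp was 0.32 ± 0.32 (SE, edgeR adjusted p = 0.637, 95% interval -0.38 to 1.02). With the cardiomyocyte marker score as a covariate, the log2 fold changes of Dbp, Nr1d1, Per3 and Cry2 were -0.35, -0.08, -0.16 and -0.04. That of Cry1 was 0.45 (edgeR adjusted p = 0.123). In that fit edgeR called none of the 10, and 45 of all 15949 tested genes.

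The counts of Nr1d1 lay nearer than the others to a limit seen in all libraries. Where the mean count was 1000 or more, no gene exceeded 2.10 reads per base of its length in any mouse, close to the limit of 2 that would be seen if reads starting at the same position on the same strand were counted once. Nr1d1 reached 55.5% of that limit, while no other clock gene of the 10 passed 9.28%. After a correction for occupied start positions the log2 fold changes kept their sign in all 10, and edgeR again called none.

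Variation among mice fed the same diet was wide in several of the clock genes. The within-diet SD of log2 CPM was 0.51 for Nr1d1, larger than in 99.9% of the 1094 tested genes of similar level, within 0.5 on the log2 scale. Per1 stood at the percentile 99.2, Cry2 at 97.7, Per3 at 96.6 and Dbp at 95.3 of genes of their own level. Npas2 (78.2), Arntl (69.6), Per2 (61.8) and Clock (52.1) were nearer the middle, and Cry1 (11.2) was among the steadier genes. The highest mouse exceeded the lowest 3.41-fold for Per1, 3.29-fold for Nr1d1 and 3.10-fold for Dbp, but 1.26-fold for Clock. These percentiles describe these libraries and carry no test.

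Relations between clock genes across mice were examined next, and few were called. For Arntl with each of the other 9 genes, 1 of the 9 relations over the 10 mice had an adjusted p under 0.05, that with Clock (Pearson's r = -0.84, permutation p = 0.00263, adjusted over the 9 relations 0.0237; Spearman's rho = -0.87, permutation p = 0.00202). The sign stayed negative within diets, but with the mean of each diet removed r was -0.76 (adjusted p = 0.249), and without the 2 mice farthest from the median of Arntl it was -0.61 (permutation p = 0.109). The call was also lost when any one of control mice 1, 2, 3 or 4 or ketogenic mice 1, 3 or 4 was left out, although r stayed between -0.90 and -0.77 whichever of the 10 mice was left out. Arntl and Dbp, which peak at opposite times in a cycling tissue, had r = -0.59 (permutation p = 0.0781, adjusted 0.234). Arntl and Nr1d1 had r = -0.57 (permutation p = 0.0726, adjusted 0.234).

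All 45 pairs of the 10 genes were then examined, a step added after the data had been seen. An adjusted p under 0.05 was reached by 4 pairs, and 10 had an unadjusted p under 0.05. Besides Arntl with Clock (adjusted over the 45 pairs 0.0296), the other 3 all involved Dbp and were positive. Dbp and Per3 had r = 0.90 (rho = 0.90, permutation p = 0.00074, adjusted 0.0191). For Dbp and Cry2 r was 0.85 (rho = 0.90, permutation p = 0.00085, adjusted 0.0191). For Dbp and Nr1d1 r was 0.78 (rho = 0.96, permutation p = 0.00159, adjusted 0.0239).

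Dbp, Per3, Cry2 and Nr1d1 thus ordered the mice alike, with control mice 1 and 2 and ketogenic mice 1 and 5 low and ketogenic mouse 2 at or near the top. For each pair, the 2 mice farthest from the median of the gene paired with Dbp were then left out. The r values were 0.92 with Per3, 0.87 with Cry2 and 0.89 with Nr1d1, with adjusted p-values of 0.0576, 0.0708 and 0.0708. The mice left out were not chosen by Dbp itself. With the mean of each diet removed the r values were 0.89, 0.84 and 0.75 (adjusted 0.0563, 0.0615 and 0.13). Under that setting Cry2 with Nr1d1 was the only pair called (r = 0.71, adjusted p = 0.0375). Per1 had negative values with each of these 4 genes, r = -0.76 with Cry2, -0.67 with Dbp, -0.60 with Nr1d1 and -0.46 with Per3, but none was called (adjusted p from 0.0945 to 0.334). Cry1 and Per2 showed little relation to Dbp (r = 0.10 and -0.08). The log2 ratio of Dbp to Arntl ran from -3.16 to -1.41 in control mice and from -2.75 to -1.18 in ketogenic mice, so both diets spanned most of the same range.

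**Figure D2:**
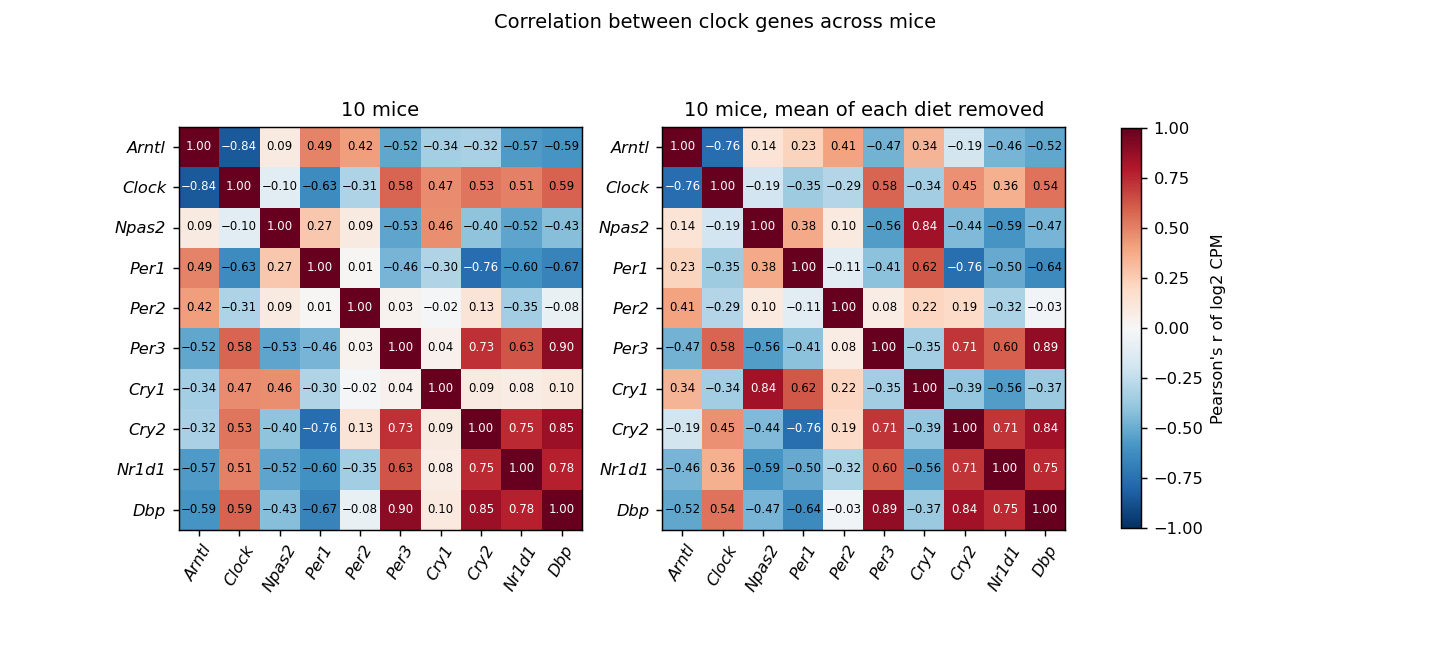
Pearson's r of log2 CPM between every pair of the 10 clock genes over 10 mice, as measured (left) and with the mean of each diet removed (right), on a color scale from -1 (blue) to 1 (red). The cells that join Per3, Cry2, Nr1d1 and Dbp are red in both panels, from 0.60 to 0.90, and Arntl with Clock is blue in both (-0.84 and -0.76).

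The cardiomyocyte marker score moved with Dbp as well. Over the 10 mice its r with Dbp was 0.76 (rho = 0.79, permutation p = 0.0137, adjusted over 11 marker scores and depth measures 0.15). With that score removed from both genes, r was 0.79 for Dbp with Per3, 0.76 with Cry2 and 0.56 with Nr1d1, and -0.73 for Arntl with Clock. Mesothelial markers had r = -0.64 with Dbp (permutation p = 0.0347, adjusted 0.191). The total count had r = -0.21 with Dbp and the endothelial score 0.45.

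Other genes of the clock were described with a list of 23, and relating Dbp to them was likewise a later addition. Of these 23 relations 3 had an adjusted p under 0.05. Tef and Hlf encode the PAR bZIP factors that bind D-boxes together with DBP, and Nr1d2 encodes REV-ERB beta, the partner of Nr1d1. Dbp and Tef had r = 0.96 (rho = 0.89, permutation p = 1e-05, the smallest that 100000 resamples can give, adjusted 0.00023). Hlf had r = 0.89 (rho = 0.87, permutation p = 0.00155, adjusted 0.0119) and Nr1d2 r = 0.83 (rho = 0.93, permutation p = 0.00083, adjusted 0.00955). Tef went from 583 normalized counts in control mouse 2 to 1064 in control mouse 5, and on the ketogenic diet it had 645 in mouse 1, 679 in mouse 5 and between 1042 and 1059 in mice 2, 3 and 4. The order of the mice was therefore close to that of Dbp within each diet.

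With the mean of each diet removed, Dbp had r = 0.96 with Tef, 0.89 with Hlf and 0.81 with Nr1d2, and all 3 were called (adjusted 0.00958, 0.0152 and 0.0425). Without the 2 mice farthest from the median of Dbp, r was 0.94 with Tef, 0.91 with Hlf and 0.86 with Nr1d2 (adjusted 0.00966, 0.0363 and 0.095). With the cardiomyocyte score removed from both genes they were 0.91, 0.75 and 0.63. Nfil3, whose product competes with DBP for D-boxes, had the opposite sign (r = -0.71, permutation p = 0.0279, adjusted 0.107).

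**Figure D3:**
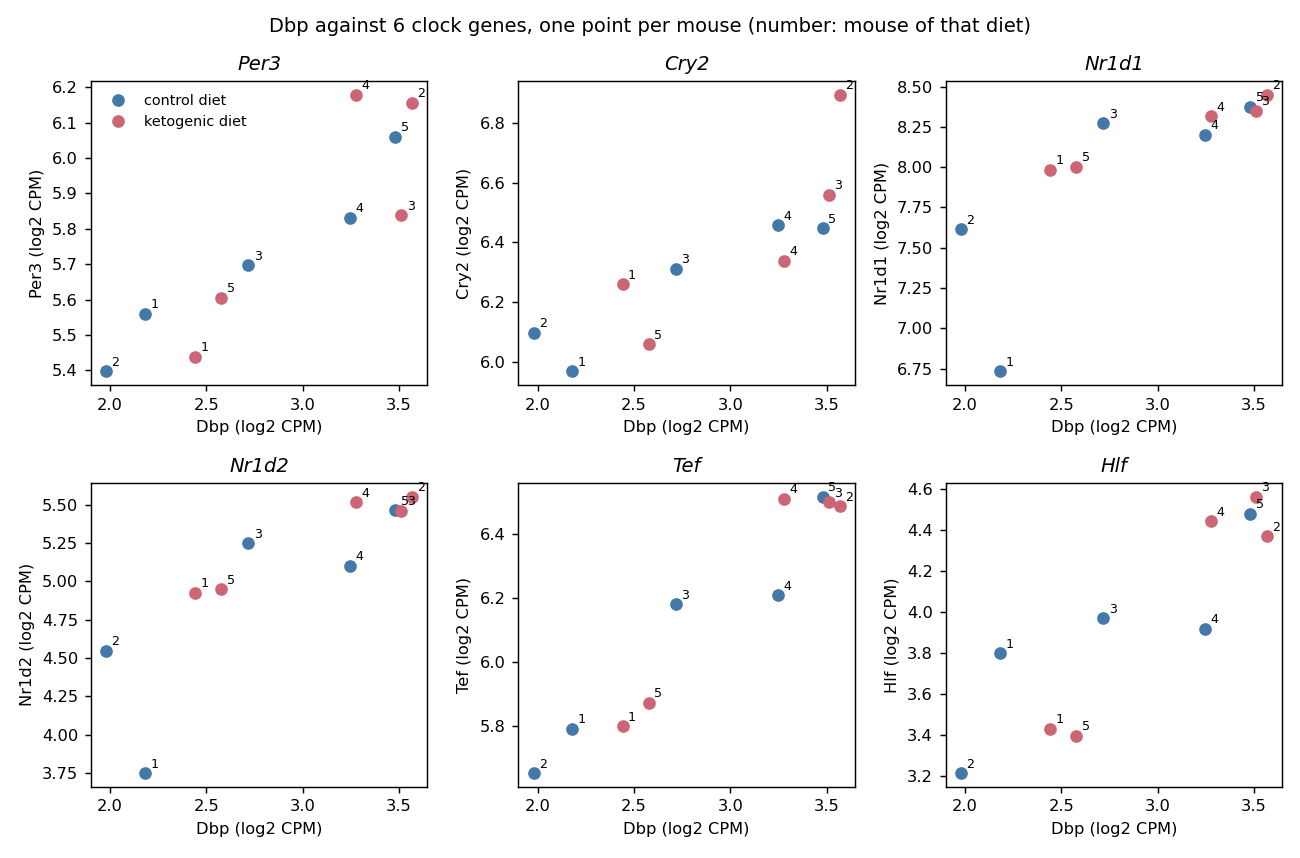
Log2 CPM of Per3, Cry2, Nr1d1, Nr1d2, Tef and Hlf (vertical axes) against log2 CPM of Dbp (horizontal axes), with one point per mouse, numbered within its diet, in blue for the control and red for the ketogenic diet. Both diets are spread along the same rising trend in each panel, from control mice 1 and 2 at the lower left to ketogenic mouse 2 at or near the upper right.

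Between the diets, none of the 23 further clock genes was called by edgeR (1.34% of all tested genes). At an unadjusted p under 0.05 there were 2, Cipc among them (17.8% of all tested genes). DESeq2 called 1, Cipc (5.30% of the genes it gave an adjusted p). Their log2 fold changes were positive in 12 and negative in 11, with 0.00097 as the median. Cipc encodes a protein that binds CLOCK and holds it back. Cipc had 1178, 1329, 1357, 1273 and 1445 normalized counts on the control diet and 946, 928, 874, 981 and 1298 on the ketogenic diet. Ketogenic mice 1 to 4 lay below all control mice, and mouse 5 did not. Its log2 fold change was -0.39 ± 0.0982 (SE, edgeR adjusted p = 0.0729), and the adjusted p was 0.00765 without ketogenic mouse 5 and 0.00704 by DESeq2, with a range of 0.00704 to 0.279 over the 21 alternatives. Nr1d2 (0.37), Hlf (0.20) and Tef (0.17), which vary with Dbp, had log2 fold changes of the same sign as Dbp, with edgeR adjusted p-values from 0.493 to 0.747. Like that of Dbp, each turned negative with the cardiomyocyte score as a covariate (-0.08, -0.45 and -0.26).

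**Figure D4:**
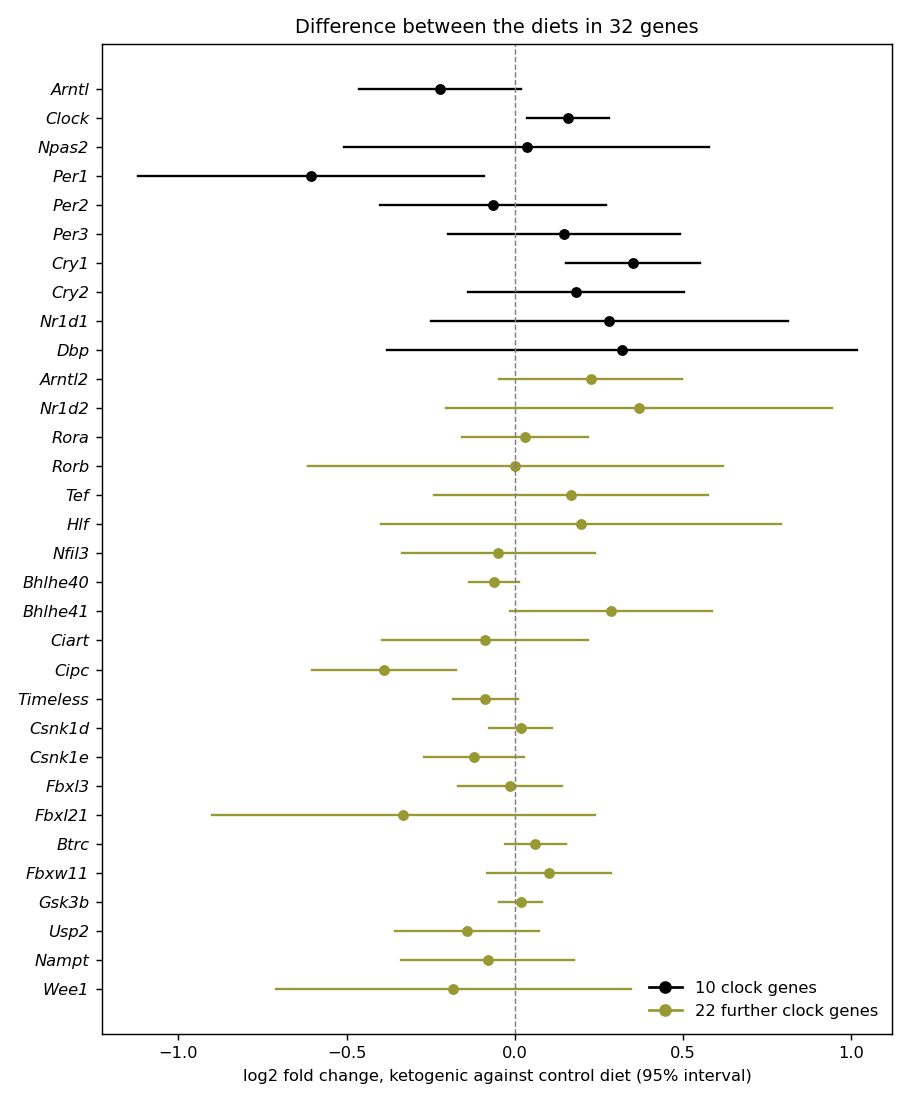
Log2 fold change, ketogenic against control diet, of the 10 clock genes (black) and 22 of the 23 further clock genes (olive), with points for the fitted value and bars for its 95% interval. The intervals of Cry1, Clock, Per1 and Cipc exclude 0 before adjustment, and the widest belong to mouse-to-mouse variable or sparse genes such as Dbp and Rorb.

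Since Per1 also answers to glucocorticoids and to acute stimulation, lists of such genes were read beside it. Of 13 glucocorticoid response genes 2 were called (1.34% of all tested genes), and 6 had an unadjusted p under 0.05, 3 higher and 3 lower (17.8% of all tested genes). Both called genes were higher: Pdk4, a kinase that blocks pyruvate oxidation (log2 fold change 1.44 ± 0.1 SE, edgeR adjusted p = 0.000103), and Angptl4, an inhibitor of lipoprotein lipase (1.07 ± 0.16, adjusted p = 0.00885). Both are also targets of the fatty acid receptors of the PPAR family. With the cardiomyocyte score as a covariate 1 gene of the list was called, and 45 of all 15949 tested genes. Over the list 4 log2 fold changes were positive and 9 negative, with a median of -0.07. In their highest mouse Mt1 and Cdkn1a used 71.2% and 67.7% of the limit of 2 reads per base. The raw counts of Sgk1 hardly differed between mice (5092 to 5264 reads). No direction shared with Per1 is therefore read from this list. Nr3c1, the glucocorticoid receptor itself, was not called (0.16 ± 0.0342, edgeR adjusted p = 0.0504), nor was Tsc22d3 (-0.11 ± 0.0364, adjusted p = 0.146). All 5 ketogenic mice lay above the highest control mouse for Nr3c1 (two-sided exact permutation p = 0.00794). The diets did not overlap for 3 of the 13 genes, Pdk4, Angptl4 and Nr3c1, against 4.34% of all tested genes. Fkbp5, named after its values were seen because it is a widely used glucocorticoid reporter, ranged from 212 to 448 normalized counts on the control diet and from 90.3 to 461 on the ketogenic diet (-0.33 ± 0.36, edgeR adjusted p = 0.665).

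None of 14 immediate early genes was called by edgeR or DESeq2. At an unadjusted p under 0.05 there were 3 (Jun, Klf2 and Klf4), against 17.8% of all tested genes. Jun, a subunit of the AP-1 factor, had a log2 fold change of -0.11 ± 0.0327 (SE, edgeR adjusted p = 0.111). Klf2 (-0.13 ± 0.0409, adjusted p = 0.124) and Klf4 (-0.15 ± 0.0495, adjusted p = 0.155), which encode flow-responsive factors of endothelial cells, had similar values in edgeR, and Fosb had -0.08 ± 0.0377 (adjusted p = 0.3). In their highest mouse, 10 of these 14 genes used more than 50% of the limit of 2 reads per base, and the raw counts of several hardly differed between mice, as for Fos (4250 to 4369 reads), Atf3 (3633 to 3710) and Ier3 (2191 to 2249). These 3 were chosen after their values were seen. Where raw counts are nearly constant, dividing by library size alone sets the sign of a difference, and the ketogenic libraries had the larger mean total, so no direction is read from this list. Only Nr1d1 among the clock genes of the 10 was above 50%.

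The genes whose pattern over the mice was most like that of Arntl or Dbp were taken from 12377 genes whose mean count was 50 or more, by Pearson's r over the 10 mice with the mean of each diet removed. For Dbp the 5 highest were Tjp1 (r = 0.97), which encodes a tight junction protein, Tef (0.96), Plcb4 (0.96), Rbpj (0.96), the DNA-binding factor of Notch signalling, and Zmpste24 (0.95). Hlf ranked 32, Per3 33, Cry2 77 and Nr1d1 248 of 12377. The 5 lowest for Dbp were Ywhag (-0.98), Ldlrad4 (-0.97), Arpin (-0.97), Pfkl (-0.95) and Bsdc1 (-0.95). For Arntl the 5 highest were Galnt18 (0.95), Afap1l1 (0.93), Satb1 (0.93), Vcp (0.91) and Cpsf4 (0.91), and the 5 lowest Fkbpl (-0.97), Tmem129 (-0.96), Atl3 (-0.95), Tctex1d2 (-0.95) and Ndufaf7 (-0.95). Clock ranked 12207 for Arntl (r = -0.76), and Nfil3, which like Arntl is repressed by the REV-ERB receptors, ranked 125 (r = 0.76). With 10 mice and this many genes such ranks are descriptions of these libraries.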

How the data were processed

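Poly(A) RNA of CD31+ heart cells from 10 mice was turned by the authors into 1 SMART-Seq library per mouse and read in single-read mode. The authors deposited whole-number counts per gene without normalization, and RPKM values, in which each count is divided by the gene's length and the reads counted in the mouse. The submitters' processing notes name bcl2fastq 2.17.1.14, STAR 2.3, HTSeq 0.6.0 and the mm10 build. The annotation release and any removal of duplicate reads are not given in the sources used here.

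The 46983 identifiers were matched to GENCODE M21 (37902 with the same version, 46488 without regard to it). Counts were normalized by TMM, filtered by filterByExpr and compared with the quasi-likelihood F-test of edgeR 4.0.16 in R 4.3.3, with Benjamini-Hochberg adjustment over 15949 genes. The standard error was obtained from each gene's F statistic (fold change on the log2 scale over root F). For log2 CPM the prior count was 2. Exact permutation tests used all 252 groupings of the mice, and correlations 100000 resamples, or all 14400 pairings within diets once diet means were removed (Python 3.11.15). All tests were two-sided. P-values between the diets set the difference against the variation between these mice, and those of correlations set r against shuffled pairings. Alternatives were DESeq2 1.42.0, limma 3.58.1 on log2 RPKM, other scalings and filters, the replicate number as a block, a cardiomyocyte score as a covariate, and each mouse left out. Counts corrected for start positions, the 45 pairs and the relations of Dbp with further clock genes were chosen later, with the data in view. The methods were tested on simulated data.

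The members and lists were chosen with earlier results of these data known. Named were all 10 members, further clock genes with an adjusted p under 0.05 or among up to 6 largest changes at an unadjusted p under 0.05, the 4 smallest p of the glucocorticoid and immediate early lists, the 5 genes most and least like Arntl and Dbp, and genes overlapping a member. Others were chosen after their values were seen, as were Tef, Hlf, Nr1d2, Nfil3 and Cd79a. A further clock gene that meets this rule is not reported here. The labels give no batch or date.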

Additional observations from a re-analysis of the deposited data

Results flagged for a closer look

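Of 54 groups of 5 mice examined, 3 held a mouse whose gap to its nearest neighbour exceeded 0.71 of the range of the group, where chance alone gives about 1 in 20, or 2.7. Ketogenic mouse 5 stood highest for Cipc, with 1298 normalized counts and a gap of 0.748 of the range. Ketogenic mouse 2 stood highest for Fosb, with 6859 normalized counts and a gap of 0.832 of the range. Its raw count of 6561 reads was below the 6597 of ketogenic mouse 5, so its place depends on the scaling. Fosb also reached 90.6% of the limit of 2 reads per base. Ketogenic mouse 1 had the fewest genes with a read, 23131, with a gap of 0.723 of the range.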

How the results depend on the processing

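The median log2 fold change of all genes lay between -0.021 and 0.0063 in every setting, and the signs of Arntl, Clock, Per1 and Cry1 held in all 21 alternatives. Of 210 values of single clock genes, 200 kept their sign and their side of the threshold. Adding the cardiomyocyte score to the model, the log2 fold changes of Dbp (-0.35), Nr1d1 (-0.081), Per3 (-0.16) and Cry2 (-0.037) reversed. Leaving out 1 mouse, Per2 ranged from -0.19 to 0.030 and Npas2 from -0.14 to 0.16. Per2 turned to 0.030 without control mouse 1 and 0.0039 without ketogenic mouse 4. Npas2 turned to -0.10 without control mouse 3, -0.04 without control mouse 5 and -0.14 without ketogenic mouse 5. In place of 213 genes called, DESeq2 gave 806, the replicate block 113, the cardiomyocyte covariate 45, and leaving out 1 mouse 86 (control mouse 2) to 492 (ketogenic mouse 2). DESeq2 called 1 clock gene and 1 further clock gene, and leaving out 1 mouse gave no clock gene and 0 to 1 further clock genes (Cipc, without ketogenic mouse 5). The glucocorticoid list, with 2 genes called, had 1 with the cardiomyocyte covariate and 3 with DESeq2, DESeq2's size factors, library size alone, at least 10 counts in every mouse or without ketogenic mouse 2, and the immediate early list 0 to 1 when 1 mouse was left out, 1 without ketogenic mouse 2. Among relations across mice, those of Arntl gave 0 with diet means removed, 0 without the 2 farthest mice and 0 to 1 with 1 mouse left out. The 45 pairs gave 1 with diet means removed, 0 without the 2 farthest mice and 2 to 6 with 1 mouse left out, and the relations of Dbp with further clock genes 5 with diet means removed. Same-numbered mice of the 2 diets did not deviate together (r from -0.13 to 0.09), and 1 of 10 mice correlated best with its own number. These values cannot show whether same-numbered mice shared a litter, cage or day, and the main test used no pairing. With the replicate block no clock gene was called. The cause of these shifts was not tested.

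The time of collection, the unknown removal of duplicate reads and the cell makeup limit these values. Dbp and Npas2 had 42 to 133 reads per mouse, and Dbp also varied more between mice of a diet than 95.3% of genes of its level. The 95% interval of the log2 fold change of Dbp, from -0.38 to 1.02, covers a doubling.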
